A study of Arabidopsis thaliana with 8 samples.

Results

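Heat shock factors are the transcription factors that switch on the heat response, and heat shock proteins are the chaperones they control. The set described here holds 44 Arabidopsis thaliana genes of the 25665 gene loci named on the array, measured by 45 of the 26236 probes that carry a locus name. A probe belonged to the set when its locus was on a list of heat shock factor, HSP70, HSP90, HSP100 and BiP genes with ROF1, ROF2, MBF1C and HOP3. The list does not hold every HSP70 and HSP100 gene, and small heat shock proteins were kept out. There were 15 class A factors, 6 class B and C factors, 2 HSP100 chaperones, 4 cytosolic HSP90 genes, 5 cytosolic HSP70 genes, 4 chaperones of plastids and mitochondria, 4 chaperones of the endoplasmic reticulum (ER) and 4 cofactors.

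The study compared untreated whole seedlings of wild type Col-0 with seedlings of the voz1 voz2 double mutant, in which both genes for the VOZ transcription factors are disrupted, on 4 one-colour arrays per genotype. All seedlings were 14 days old and grew at 22 °C on half-strength MS agar medium under 16 h light and 8 h dark a day, so no sample had been given a heat shock. The alleles are not given in the labels, nor is it stated that the replicates were grown separately, so the p-values below cover the spread among these 8 samples alone, which may be technical. Whole seedlings mix all organs, and in such RNA fewer cells of a type cannot be told apart from less RNA per cell.

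In plants, class A factors activate heat shock promoters, while most class B factors lack an activation domain and several repress them. In unstressed cells, cytosolic HSP70 and HSP90 hold the HSFA1 factors inactive, and unfolded proteins draw the chaperones away and release the factors. HSP100 proteins pull aggregated proteins apart, HSP70 and HSP90 fold and hold client proteins, and BiP is the HSP70 of the ER.

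The targeted genes went with the labels: VOZ2 stood between 1.09 and 1.83 on the wild type arrays and between -4.90 and -3.84 on the mutant arrays, and VOZ1 between 0.45 and 0.59 against -1.25 and -0.86. These levels, like all below, are log2 signals minus the 75th percentile of the array, so that 1 unit is a 2-fold difference. Between 60.4% and 70.3% of the probes of an array were well above background. All 6 leaf markers and all 9 root markers looked at were well above background on all 8 arrays. Of 5 seed markers, GEA6 was so on all 8 arrays and 2 were so on none. SESA3 and OLEO1 were so on 3 and 1 wild type arrays and on no mutant array. The arrays lay on 2 slides, each with 2 arrays of each genotype: replicates 1 and 3 of both on slide 1, replicates 2 and 4 on slide 2.

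Few of these genes were called as different between the genotypes. HSP70 and HSP90.1, heat-inducible cytosolic chaperones, were higher in voz1 voz2, and the class A factor HSFA6A, at background on most mutant arrays, was lower. Of the 44 members 43 were tested, and 2 were higher and 1 was lower (limma, Benjamini-Hochberg adjusted p under 0.05 over all 24599 genes tested). Over all genes tested, 2.72% were higher, 1.72% were lower and 4.44% were called in either direction, so the members' share is near that of genes in general. The median fold change of the 43 members was -0.07 on the log2 scale, beside -0.03 for all genes. For 27 of the 43 the 95% interval of the fold change lay wholly within 1 log2 unit of 0, and 5 had a fold change of 2-fold or more in either direction. Of all 24599 genes tested, 15032 had such an interval and 2219 such a fold change, so these shares too are near those of genes in general.

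**Figure D1:**
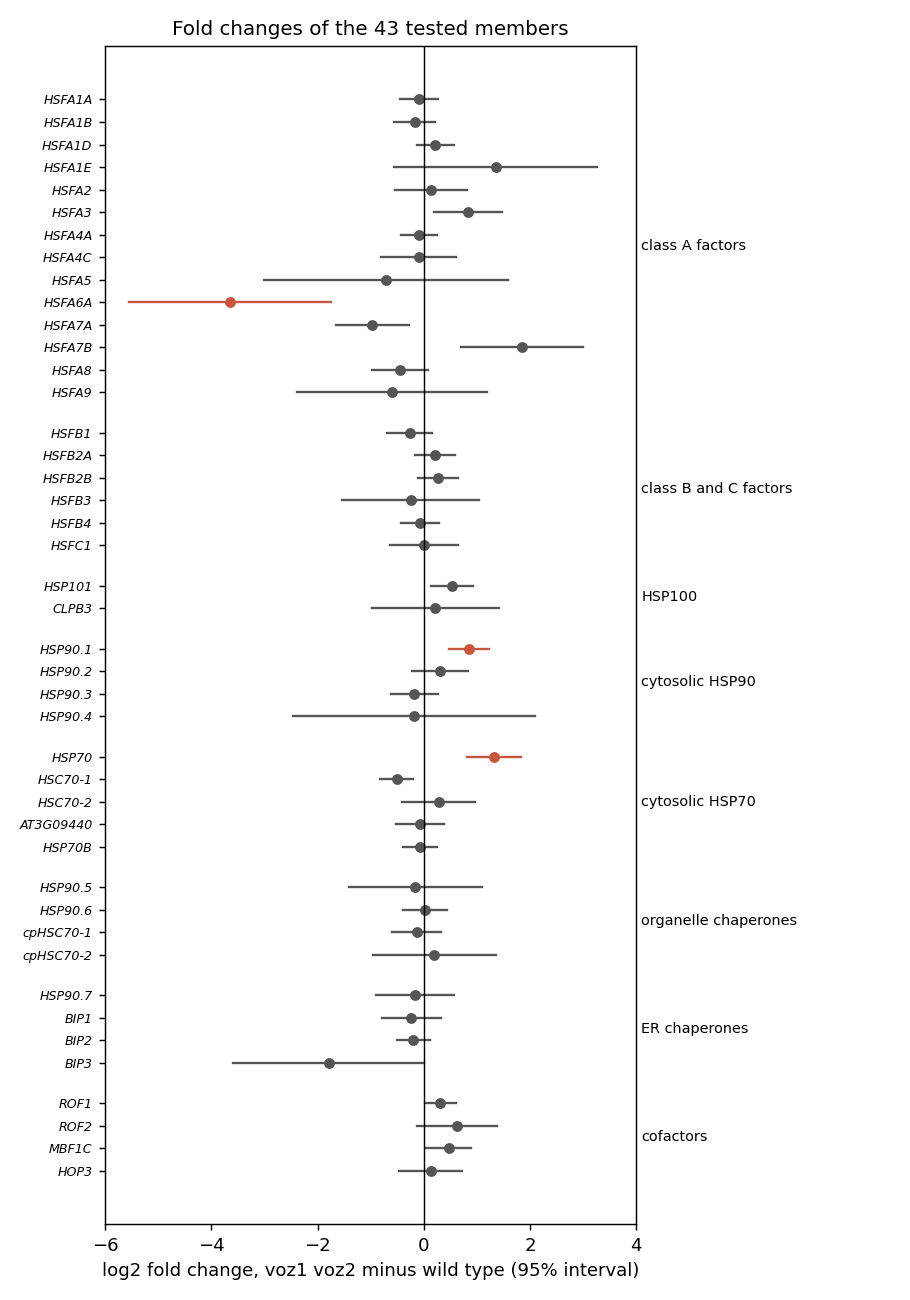
Log2 fold change (voz1 voz2 minus wild type, horizontal axis) of the 43 tested members with 95% intervals from limma, n = 4 arrays per genotype, grouped by family. Red marks the 3 members with an adjusted p under 0.05, HSFA6A at -3.65 (3 of 4 mutant values at background), HSP90.1 at 0.85 and HSP70 at 1.32, while most other points lie within 1 unit of 0.

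Among the 5 cytosolic HSP70 genes of the set 1 was called. HSP70 (AT3G12580), whose transcript is strongly heat-induced, stood at 1.71, 2.32, 2.72 and 2.16 on wild type replicates 1 to 4 and at 3.45, 3.38, 3.80 and 3.56 on mutant replicates 1 to 4. Each mutant array was above each wild type array, and the lowest mutant and highest wild type value were 3.38 and 2.72. The mean rose from 2.23 ± 0.42 to 3.55 ± 0.18 (SD, n = 4 each), a log2 fold change of 1.32 (SE 0.22), or 2.50-fold (limma adjusted p = 0.0187). Within slide 1 the difference was 1.41 and within slide 2 it was 1.23, and neither slide alone passed (limma adjusted p = 0.2125 and 0.1647). In the deposited table, whose scaling differs by genotype, HSP70 gave 0.98 and did not pass (adjusted p = 0.4482). Without wild type replicate 4, mutant replicate 1 or mutant replicate 3 the adjusted p lay between 0.0505 and 0.0586, and over all arrays left out in turn the fold change ran from 1.15 to 1.48.

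HSC70-1 (AT5G02500), a constitutive cytosolic HSP70, was at 5.02, 4.96, 4.97 and 5.21 in wild type and at 4.67, 4.64, 4.39 and 4.43 in the mutant. The mutant arrays all lay below the wild type arrays, yet the fold change of -0.51 (SE 0.13) did not pass (limma adjusted p = 0.0693). It passed with slide as a block (adjusted p = 0.0320) and not with the replicate number as a block (adjusted p = 0.0530). The gene was singled out after its values were seen.

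The neighbouring gene HSC70-2 (AT5G02490), which lies directly beside HSC70-1 in the RefSeq gene order, has a pair of probes, and these gave unlike differences. The brighter probe went from 1.50 ± 0.54 to 1.78 ± 0.36 (SD, n = 4 each), a difference of 0.28, and the dimmer probe gave 1.09 (limma adjusted p = 0.615 and 0.174). AT3G09440, another cytosolic HSP70 gene, had a fold change of -0.07 (95% interval -0.52 to 0.38). HSP70B (AT1G16030), a heat-inducible HSP70, stood between -2.97 and -2.55 on wild type arrays and between -2.98 and -2.73 on mutant arrays. Its fold change was -0.08 (95% interval -0.40 to 0.24), an interval that does not reach the value of HSP70.

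Of the 4 cytosolic HSP90 genes, 1 was called. HSP90.1 (AT5G52640), the heat-inducible copy, stood at 1.49, 1.37, 1.88 and 1.24 in wild type and at 2.35, 2.42, 2.22 and 2.37 in the mutant. The groups did not overlap, and the mutant arrays lay closer together than the wild type arrays. The mean rose from 1.49 ± 0.28 to 2.34 ± 0.09 (SD, n = 4 each), by 0.85 (SE 0.16), or 1.80-fold (limma adjusted p = 0.0303). The difference was 0.60 on slide 1 and 1.10 on slide 2, and neither slide alone passed (limma adjusted p = 0.2669 and 0.1678). In the deposited table HSP90.1 gave 0.51 and did not pass (adjusted p = 0.6695). The call was lost without any one array other than wild type replicate 2 or 3 (adjusted p from 0.0688 to 0.0924), and with median scaling, with normexp background correction and without the filter on dim probes (adjusted p = 0.118, 0.0861 and 0.0729).

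The constitutive genes HSP90.2, HSP90.3 and HSP90.4 are near neighbours on chromosome 5 and code for very similar proteins. HSP90.3 and HSP90.4 lie side by side, with HSP90.2 separated from HSP90.3 by 1 gene. Probe sequences were not used here, so how far each probe tells these copies apart is unknown. Their fold changes were 0.31 (95% interval -0.21 to 0.82), -0.18 (-0.62 to 0.27) and -0.19 (-2.47 to 2.10). HSP90.3 was at 3.96 on wild type replicate 1 and between 4.39 and 4.46 on the other wild type arrays, and between 3.77 and 4.48 on the mutant arrays.

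**Figure D2:**
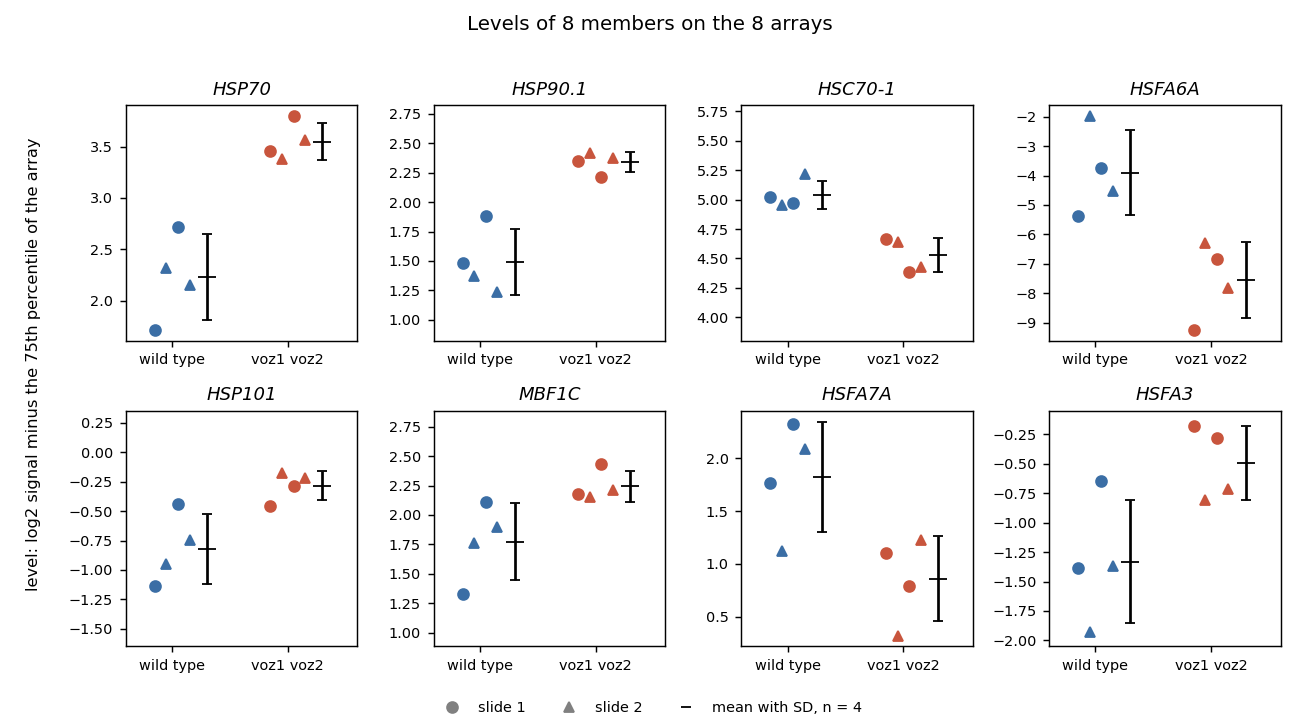
Level on each array (vertical axis, log2 signal minus the 75th percentile of the array, a separate scale per panel) of 8 members in wild type and voz1 voz2, circles for slide 1 and triangles for slide 2, with the mean and SD of n = 4 beside the points. HSP70 and HSP90.1 have all mutant points above the wild type points, HSC70-1 and HSFA6A all below, and HSP101, HSFA7A and HSFA3 overlap.

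HSP101 (AT1G74310), the cytosolic disaggregase needed for acquired thermotolerance, stood at -1.14, -0.95, -0.44 and -0.74 in wild type and at -0.46, -0.18, -0.29 and -0.22 in the mutant. The highest wild type array, replicate 3, reached the lowest mutant array, replicate 1. The fold change was 0.53 (SE 0.17, limma adjusted p = 0.117), with 0.42 on slide 1 and 0.65 on slide 2. The plastid HSP100, CLPB3, gave 0.22 (95% interval -0.98 to 1.42). That interval counts the difference between the slides as spread, and the SE of 0.52 fell to 0.098 with slide as a block.

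The fold changes of the 4 cofactors were all above 0 (median 0.39), but none passed in limma and 2 had an unadjusted p under 0.05. In the deposited table, whose scaling differs by genotype, ROF1 and HOP3 turned below 0. MBF1C (AT3G24500), a transcriptional coactivator required for basal thermotolerance, was at 1.33, 1.76, 2.11 and 1.90 in wild type and at 2.18, 2.15, 2.44 and 2.21 in the mutant. All mutant arrays were above all wild type arrays, although mutant replicate 2 and wild type replicate 3 nearly met. Its fold change was 0.47 (SE 0.19, limma adjusted p = 0.173). The FKBP-type isomerases ROF1 and ROF2, co-chaperones of the heat response, gave 0.31 and 0.63, and HOP3, which links HSP70 to HSP90, gave 0.13. ROF2 passed with the replicate number as a block (adjusted p = 0.0358, against 0.286 without it and 0.0511 with the slide block).

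Counting members whose arrays did not overlap, HSP70, HSP90.1 and MBF1C were higher on all 4 mutant arrays than on any wild type array, and HSFA6A and HSC70-1 lower. These are 3 and 2 of 43, where 8.39% of all genes tested lay wholly above and 7.73% wholly below.

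The HSFA1 factors, the master regulators of the heat response, were not called. HSFA1A (AT4G17750) stood at -2.72, -2.65, -2.68 and -2.38 in wild type and at -2.95, -2.53, -2.81 and -2.52 in the mutant. HSFA1B (AT5G16820) was at -1.73, -1.59, -1.86 and -1.36 against -2.04, -1.68, -1.93 and -1.57. HSFA1D (AT1G32330) was at -0.50, -0.57, -0.42 and -0.76 against -0.21, -0.43, -0.13 and -0.60. For all 3 the genotypes overlapped, and the fold changes were -0.09 (95% interval -0.45 to 0.26), -0.17 (-0.56 to 0.22) and 0.22 (-0.13 to 0.57), so a 2-fold change lies outside each interval. HSFA1A turned to 0.60 with normexp background correction. On wild type replicate 3 the local background of its spot was 286 intensity units against 47.0 to 53.5 on the other arrays.

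HSFA1E (AT3G02990) stood at -4.13, -3.39, -4.35 and -3.40 in wild type and at -4.09, -2.98, 0.27 and -3.02 in the mutant. Mutant replicate 3 was far above the other arrays, with a processed signal of 1556 units where the others had 35.5 to 305, and the background around that spot carried an outlier flag. The fold change was 1.36 (SE 0.83, limma adjusted p = 0.363) with all arrays and 0.45 without mutant replicate 3.

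HSFA2 (AT2G26150), a heat-induced factor that prolongs acquired thermotolerance, was at -2.56, -2.76, -1.63 and -2.80 in wild type and at -2.39, -2.42, -1.80 and -2.62 in the mutant. Replicate 3 was the highest array in each genotype, and the groups overlapped. The fold change was 0.13 (95% interval -0.55 to 0.81) and ran from -0.04 to 0.40 when single arrays were left out.

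The fold changes of the other class A factors lay on both sides of 0, and 1 factor was called. HSFA6A (AT5G43840) stood at -5.38, -1.98, -3.74 and -4.52 in wild type and at -9.26, -6.28, -6.85 and -7.84 in the mutant. Every mutant array was lower. The probe was well above background on 4 wild type arrays and on 1 mutant array, so it passed the filter through the wild type arrays, and 3 of the 4 mutant values are at background and give no reliable size. The fitted log2 fold change was -3.65 (SE 0.83, limma adjusted p = 0.0485). With normexp it was -0.90, and the call was lost without any one array (adjusted p from 0.0551 to 0.103), with quantile scaling, without the filter, and without spots of flagged local background.

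HSFA7B (AT3G63350) was also dim, well above background on 1 wild type and 3 mutant arrays. It stood at -8.65, -6.60, -8.26 and -8.75 in wild type and at -7.09, -6.04, -5.81 and -5.91 in the mutant, where wild type replicate 2 lay above mutant replicate 1. It thus reached the filter mainly through the mutant arrays, and the wild type values other than replicate 2 are at background and give no reliable size. The fitted fold change of 1.85 had an adjusted p of 0.0748 in limma, 0.0449 with the slide block and 0.0439 with the replicate block. These p-values rest on wild type values at background, and the fold change fell to 0.14 with normexp. Its relative HSFA7A (AT3G51910), also heat-induced, was well above background on every array and had a fold change below 0. Its levels were 1.77, 1.12, 2.32 and 2.09 in wild type and 1.11, 0.32, 0.79 and 1.22 in the mutant, so that the highest mutant array passed the lowest wild type array. The fold change was -0.97 (SE 0.30, limma adjusted p = 0.103), with -1.10 on slide 1 and -0.84 on slide 2. It passed with the replicate block (adjusted p = 0.0328) and without wild type replicate 2 (adjusted p = 0.0428).

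HSFA3 (AT5G03720), a factor that acts downstream of DREB2 proteins in the heat response, was at -1.38, -1.93, -0.65 and -1.37 in wild type and at -0.18, -0.80, -0.28 and -0.71 in the mutant. Of the wild type arrays, replicate 3 overlapped the mutant arrays. The fold change was 0.84 (SE 0.28, limma adjusted p = 0.123), 0.0335 with the slide block and 0.0425 with the replicate block. HSFA3, HSFA5 and HSFA7A were singled out after their values were seen. The other class A factors had fold changes of -0.09 (HSFA4A), -0.10 (HSFA4C), -0.71 (HSFA5), -0.44 (HSFA8) and -0.59 (HSFA9, a factor of seed development), with adjusted p from 0.279 to 0.883 in limma. HSFA5 passed with the slide block (adjusted p = 0.0384). HSFA6B, well above background on 1 array of each genotype, was the 1 member not tested.

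With slide as a block 4 members were higher (HSFA3, HSFA7B, HSP70 and HSP90.1) and 3 lower (HSFA5, HSFA6A and HSC70-1). Of these, HSFA7B in wild type and HSFA6A in the mutant had most values at background. With the replicate block 5 were higher and 2 lower. Both blocks raise the calls of genes in general, to 16.1% of all genes with the slide block and 13.5% with the replicate block, and 7 of 43 members in each case is near those shares. On slide 1 and on slide 2 the fold changes had the same sign for 37 of 43 members, where 80.8% of all genes did.

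All 6 class B and C factors had fold changes between -0.27 and 0.27, with none called in limma and none with an unadjusted p under 0.05. HSFB1 (AT4G36990), a repressor of heat-inducible genes, was at 1.74, 2.08, 1.52 and 1.62 in wild type and at 1.39, 1.76, 1.18 and 1.56 in the mutant. The groups overlapped, and the fold change was -0.27 (95% interval -0.69 to 0.15). HSFB2A and HSFB2B, also repressors, gave 0.22 and 0.27, and HSFB4, which acts in root stem cell divisions, gave -0.07 (95% interval -0.43 to 0.29). HSFC1, the one class C factor, gave 0.01 (95% interval -0.64 to 0.65), and HSFB3 was dim, well above background on 3 wild type and 2 mutant arrays.

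Of the 4 ER chaperones none was called in limma and none had an unadjusted p under 0.05, though all 4 fold changes were below 0, with a median of -0.21. BIP1 (AT5G28540) was at 2.18, 2.71, 2.05 and 2.51 against 1.92, 2.51, 1.67 and 2.42, and its fold change was -0.23 (95% interval -0.78 to 0.32). BIP2 (AT5G42020) was at 2.75, 2.95, 2.94 and 2.67 against 2.74, 2.62, 2.73 and 2.43, with -0.19 (-0.51 to 0.12). The genotypes overlapped for both, which code for nearly identical proteins. BIP3 (AT1G09080), the BiP gene that is induced by ER stress, varied widely between arrays, at -1.14, -2.99, -5.23 and -3.70 in wild type against -5.01, -5.45, -5.65 and -4.11. Wild type replicate 1 stood far above the rest, and the fold change was -1.79 (SE 0.78, limma adjusted p = 0.212), a 3.46-fold lower signal that was -1.09 without that array. HSP90.7, the ER member of the HSP90 family, gave -0.16 (95% interval -0.90 to 0.57).

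Of the 4 plastid and mitochondrial chaperones none was called, none had an unadjusted p under 0.05, and the fold changes ran from -0.16 to 0.20. HSP90.5 and cpHSC70-2 (plastid) had wide intervals, -1.41 to 1.09 and -0.96 to 1.36, while those of HSP90.6 (mitochondria, -0.40 to 0.44) and cpHSC70-1 (plastid, -0.60 to 0.33) were narrow. The wide intervals count the difference between the slides as spread. With slide as a block the SE fell from 0.55 to 0.15 for HSP90.5 and from 0.51 to 0.11 for cpHSC70-2.

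Some members differed more between the slides than between the genotypes. Comparing slide 2 with slide 1 over both genotypes, 16 of 43 members passed the threshold in limma, where 28.3% of all genes did, 15 of them higher on slide 2 and HSP90.6 higher on slide 1. For 27 of 43 members the slide difference was larger in size than the genotype difference. The median sizes of the slide and genotype differences were 0.34 and 0.23 for the members and 0.34 and 0.29 for all genes. A larger slide difference is therefore not particular to the members. HSFA5, a factor known to repress HSFA4, was at -4.32, -2.02, -4.36 and -1.76 in wild type and at -5.49, -2.24, -5.40 and -2.18 in the mutant, 2.84 higher on slide 2. HSP90.4 was at -0.997, 1.19, -2.11 and 0.91 in wild type and -1.34, 1.16, -2.42 and 0.85 in the mutant, 2.74 higher on slide 2, while its tandem copy HSP90.3 differed by 0.12. HSP90.5, CLPB3 and cpHSC70-2 differed by 1.50, 1.47 and 1.41 and cpHSC70-1 by 0.29, and the plot of levels by slide shows these differences in both genotypes. These members were singled out after their values were seen.

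**Figure D3:**
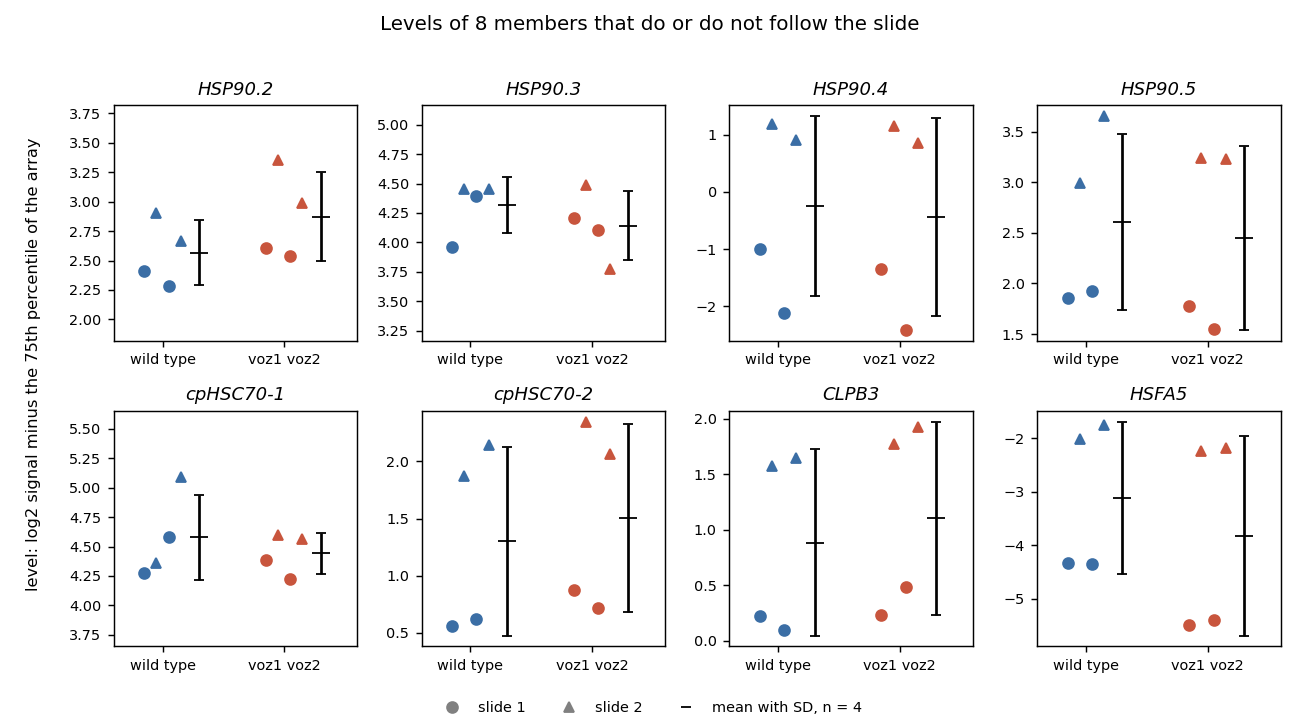
Level on each array (vertical axis, log2 signal minus the 75th percentile of the array, a separate scale per panel) of 8 members, circles for slide 1 and triangles for slide 2, with the mean and SD of n = 4. In HSP90.4, HSP90.5, cpHSC70-2, CLPB3 and HSFA5 the triangles stand above the circles in both genotypes, in HSP90.2 they do so less, and in HSP90.3 and cpHSC70-1 the slides overlap.

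Other genes of the heat response and of protein folding were counted from lists for comparison. Of 8 further HSP70, HSP110 and ClpB genes tested none was called in limma (1 with an unadjusted p under 0.05, median 0.02). Of 13 co-chaperones none was called (1 with an unadjusted p under 0.05, median 0.01), and of 21 genes of the unfolded protein response and ER folding none (2 with an unadjusted p under 0.05, median -0.08).

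Of 10 other heat response genes, 2 were higher and 1 was lower. APX2, a cytosolic ascorbate peroxidase induced by heat and excess light, was well above background on no wild type array and on all 4 mutant arrays (limma adjusted p = 0.000356). Its mutant mean was 10.2-fold above a wild type floor, while with normexp its log2 fold change was 0.89, so the size depends on the background correction. APX2 thus passed the filter through the mutant arrays alone, and its p rests on wild type values at background. DREB2C, a transcription factor upstream of HSFA3, rose by 2.12 (SE 0.17, adjusted p = 0.00126), by 0.91 with normexp, and did not pass in the deposited table (adjusted p = 0.198). The galactinol synthase gene GolS1 fell by 1.09 (SE 0.23, adjusted p = 0.0393), and it did not pass without mutant replicate 2, 3 or 4 or wild type replicate 1, 3 or 4 (adjusted p from 0.0650 to 0.106), nor with median scaling, without the filter or in the deposited table (adjusted p = 0.0611, 0.0811 and 0.218 for GolS1). DREB2C passed with each array left out in turn. APX2 did so too, but those fits kept the probes chosen from all 8 arrays. The filter was not applied again, so for APX2 this adds no support.

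The small heat shock proteins, smaller chaperones that keep unfolded proteins from aggregating, are not part of the set. Of the 13 genes listed 12 were tested, and ATHSP22.0, well above background on 2 mutant arrays alone, was left out by the filter. In limma 6 were higher and none lower, where 2.72% and 1.72% of all genes were, and the median was 0.92. With the slide block 10 were higher and with the replicate block 9, where 1999 and 1657 of all 24599 genes were called higher. The count was 5 with quantile scaling, 4 each with median scaling, with normexp and without the filter, 1 in the deposited table and 0 on either slide alone. It was 2 without mutant replicate 2, and 3 without mutant replicate 3 or 4 or wild type replicate 1 or 4. All 12 fold changes were above 0, also with quantile and median scaling, with normexp and on slide 2 alone, while 11 were in the deposited table and 10 on slide 1 alone. The plastid HSP21 rose by 2.95 (SE 0.26, limma adjusted p = 0.00168), HSP17.6A by 2.07, AT1G07400 by 1.45 and AT1G59860 by 0.98. With normexp, HSP21 and HSP17.6A gave 0.85 and 0.35, so the sizes for these dim probes depend on the background correction. In wild type, the HSP21 probe was well above background on 3 arrays and that of HSP17.6A on 2, and in the mutant both were on all 4. Outside the rule for named genes, HSP17.6II, also called, was so on 2 wild type and 4 mutant arrays. HSP17.4 and HSP23.6-MITO, not called, were so on 1 wild type array each and on 3 and 4 mutant arrays. These fold changes thus rest partly on wild type values at background. HSP21 and HSP17.6A passed with each array left out in turn. AT1G07400 did not pass without mutant replicate 2 or 3 or wild type replicate 1 or 4, nor AT1G59860 without any one mutant array. No test of the difference between the lists was made. The members of this list and of the set were both chosen with results of these data known.

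**Figure D4:**
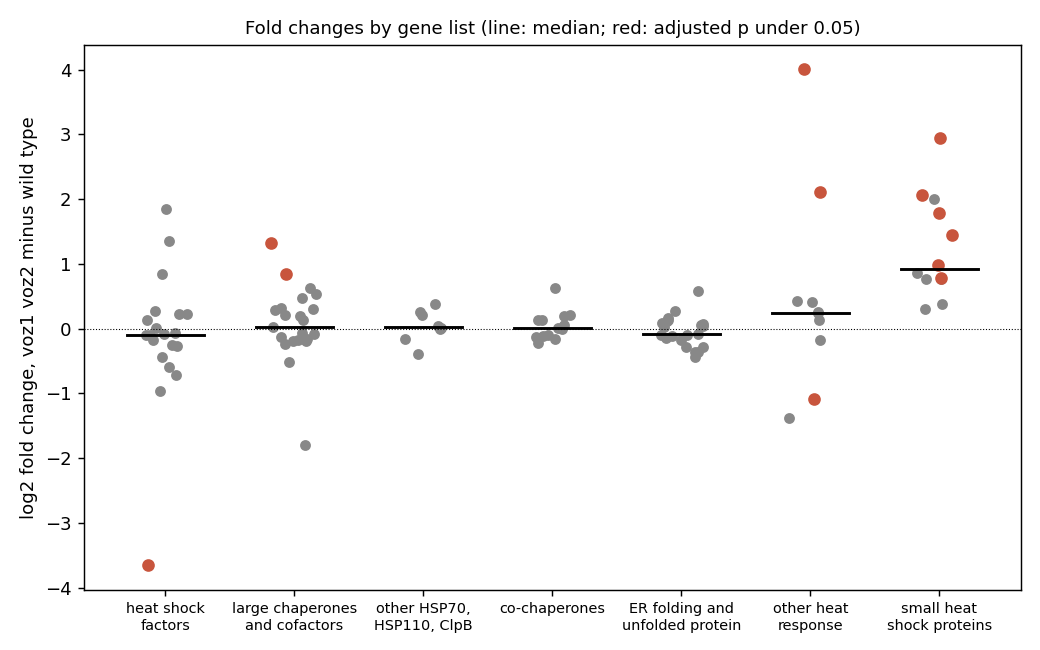
Log2 fold change (voz1 voz2 minus wild type, vertical axis) of each tested gene in the set, split into factors and chaperones, and in 5 other lists, with black lines at the medians and red for an adjusted p under 0.05. Medians lie near 0 except for small heat shock proteins at 0.92 and other heat response genes at 0.25. The highest point of the latter, APX2, is a fitted value below background in wild type.

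Of the root markers on the same arrays, 1 was called. Fold changes of 7 of the 9 root markers were above 0 (median of all 9, 0.98), and WOX5 rose by 0.69 (limma adjusted p = 0.0452), a call lost without any one array. The median level of the 9 ran from -2.47 to 0.08 over the wild type arrays and from -0.50 to 0.95 over the mutant arrays. Of the 6 leaf markers 5 had fold changes below 0, with a median of -0.38, and none was called (1 with an unadjusted p under 0.05). Their part in the values of HSP70, HSP90.1 and the small heat shock proteins was not tested.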

How the data were processed

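Agilent Feature Extraction 9.1.3.1 made the scanner output, per the submitters' processing notes. Its intensity values are processed signals that are already background-subtracted, with flags per spot, per the file headers. Values in the table deposited for the series are natural log values, each the logged processed signal less a constant of 6.42 on wild type and 6.91 on mutant arrays, within 0.001, and served as an alternative. Why these constants were used is not stated by the labels. No spot was saturated, and 9 to 111 outlier spots per array were left out.

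Log2 processed signals were averaged per probe and centred on the 75th percentile of the non-control probes of that array. A probe was kept if well above background on 4 or more of the 8 arrays, the brightest standing for its locus, which left 24599 genes. They were fitted in limma 3.58.1 (lmFit, eBayes) under R 4.3.3, adjusted over all of them by Benjamini-Hochberg at a threshold of 0.05. The fit was tested on simulated arrays with known changes. It recovered 33 of 100 changes of 1 log2 unit and 80 of 100 of 2 log2 units, so a gene not called is not thereby shown to be unchanged. The simulated noise was drawn separately for each array, with each gene's spread within genotypes, slide difference included. On the real arrays the slide difference is shared by the arrays of a slide, so the recovery there may differ and was not tested. For APX2 the 10.2-fold value compares the mutant mean with a wild type floor. The floor was taken per array as the lowest signal well above background or the probe's own signal, whichever was higher, and averaged. As it uses the lowest such signal, the value is not a strict lower bound. The number of arrays limits the precision.

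Names came from a RefSeq gene table (TAIR10.1), which held all 44 members. The build of the array design was not stated, so no coordinates are printed. Groups and replicate numbers come from the titles. Same-numbered arrays deviated together from their genotype means (correlations 0.32, 0.51, 0.46 and 0.61 over genes), and every pair being over 0.1 was taken as pairing. Same-numbered arrays also share a slide, and arrays of 1 slide with unlike numbers correlated at 0.27 to 0.54, so pairing beyond the slide is not shown.

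The members, lists and rule for named genes were chosen with earlier results of these data known. The rule gives every array for members past the threshold and for HSFA1A, HSFA1B, HSFA1D, HSFA1E, HSFA2, HSFB1, HSP70, HSP101, HSP90.1, MBF1C and the BIP genes, fold changes for those of 2-fold or more, and at most 4 called genes per list. Alternatives were quantile and median scaling, normexp with an offset of 50 on the median signal followed by quantile scaling (the mean signal, planned for it, was not used here), no filter, slide and replicate blocks, each slide alone, the dimmest probe of a locus, the deposited table, each array left out, and, chosen after seeing the data, leaving out spots with flagged local background.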

Additional observations from a re-analysis of the deposited data

Results flagged for a closer look

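Among 104 groups of 4 arrays examined, 3 held an array whose gap to the nearest other was a larger share of the group's range than Dixon's critical value allows. Chance alone flags about 1 in 20 such groups. HSFA8, a class A factor, was at -1.80 on wild type replicate 3 and between -1.03 and -0.90 on the other wild type arrays. HSP90.3 was at 3.96 on wild type replicate 1 and between 4.39 and 4.46 on the others. The small heat shock protein HSP21 was at -4.44 on mutant replicate 4 and between -3.45 and -3.29 on the other mutant arrays, still above every wild type array.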

How the results depend on the processing

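The 1091 calls over all genes became 715 with median scaling, 514 without the filter, 3955 with the slide block, 3314 with the replicate block, 70 in the deposited table and 0 on slide 1 or slide 2 alone (limma, with 4486 and 4031 at an unadjusted p under 0.05, 8 members among each), and ran from 387 to 1506 with single arrays left out. Of members, 1 was higher with median scaling, 1 with normexp, 1 without the filter, 4 with the slide block, 5 with the replicate block, 0 on either slide alone and 0 in the deposited table, and 0 to 3 with single arrays left out. The count of members called lower was 0 with quantile scaling, normexp, no filter, no flagged local background, either slide alone and the deposited table, 3 with the slide block, 2 with the replicate block, and 0 to 1 with single arrays left out, the 1 being HSFA7A without wild type replicate 2. The replicate block changed the call of no member other than HSFA3, HSFA7A, HSFA7B and ROF2. The members' median was -0.41 in the deposited table, where that of all genes was -0.37, and -0.15 was the median of all genes with median scaling.

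Of 43 tested members 19 kept their sign in all 11 alternatives and with each array left out. The deposited table turned HSFA1D to -0.12, HSFA2 to -0.21, HSFB2A to -0.12, HSFB2B to -0.072, HSFC1 to -0.33, CLPB3 to -0.12, HSP90.2 to -0.032, HSP90.6 to -0.32, HSC70-2 to -0.057, cpHSC70-2 to -0.14, ROF1 to -0.024 and HOP3 to -0.21. Its constants differ between the genotypes. Normexp turned HSFA1A to 0.60 and HSFA9 to 0.0008, quantile scaling HSFB3 to 0.11, and median scaling HSFC1 to -0.11 and HSP90.6 to -0.094. Slide 1 alone turned HSFA4A to 0.044 and HSFB4 to 0.065, and slide 2 alone HSFC1 to -0.087, HSP90.6 to -0.084, HSP90.7 to 0.016 and HSP70B to 0.0097. Without flagged local background HSFA4C was 0.048 and cpHSC70-1 0.037. With single arrays left out, 13 members turned: HSFA2 ran from -0.039 to 0.40, HSFA4C from -0.25 to 0.048, HSFB3 from -0.71 to 0.19, HSFB4 from -0.18 to 0.021, HSFC1 from -0.19 to 0.17, CLPB3 from -0.055 to 0.51, HSP90.4 from -0.81 to 0.47, HSP90.5 from -0.42 to 0.19, HSP90.6 from -0.067 to 0.11, HSP90.7 from -0.35 to 0.039, AT3G09440 from -0.18 to 0.044, cpHSC70-1 from -0.23 to 0.037 and cpHSC70-2 from -0.081 to 0.48. The causes were not tested, and none of these members was past the threshold. Signal over background limits HSFA6A, HSFA6B, HSFA7B, HSFA9 and HSFB3, the 5 of 44 members not well above background on all 8 arrays.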
